A study of Mus musculus with 18 samples.

Results

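The interferon-gamma inducible GTPases are a group of 10 genes followed here in splenic CD4 T cells of ∆Foxp3 and WT mice: the guanylate-binding protein genes Gbp2, Gbp3, Gbp4, Gbp5, Gbp6 and Gbp7 and the immunity-related GTPase genes Iigp1, Igtp, Irgm1 and Irgm2. They were chosen by name with earlier results of these data known, so shares of all genes set beside their counts are a description. All 10 were found among the 33006 genes counted. RNA of 26652 single cells was read with 10x Genomics kits. These label the 3′ ends of transcripts with a random barcode, the UMI, so that copies made by PCR are counted once.

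The 18 samples, all from male B6 mice, fell into 8 groups. In the first experiment (V2 kit) these were ∆Foxp3 mice aged 3 weeks (Foxp3DeltaEGFPiCre x ROSA-YFP, a disrupted Foxp3 allele that carries EGFP and Cre, 2 samples) and WT mice aged 3 weeks (2 samples), whose Foxp3-IRES-GFP allele reports the intact gene. In the second (V3 kit) they were ∆Foxp3 mice aged 3 weeks (2 samples), WT mice aged 9 weeks (Foxp3-IRES-GFP x CD45.1, 2 samples), ∆Foxp3 and WT cells from mixed bone marrow chimeras (3 samples each), and sorted GFP+ regulatory T cells (Treg) and GFP-negative conventional T cells (Tconv) of 9-week-old WT mice (2 samples each). Chimeras were irradiated hosts (1000 rad at 7 weeks) given CD3-depleted marrow cells, 50% of each genotype, so ∆Foxp3 and WT cells shared a host and its WT Treg cells for 10 weeks before they were sorted by their CD45 alleles. The age label of the chimeras gives 16 weeks. Each chimera had its own hashtag. The 2 samples of every other V3 group carried 1 hashtag in 2 10x tubes and may be 1 mouse, and no label gives separate mice for the V2 samples, so outside the chimeras the p-values may measure technical spread. All V3 samples shared an estimate of the spread, so the p-values of the chimeras rest in part on those samples too. In the second experiment ∆Foxp3 and WT mice also differed in age and in the CD45.1 cross of the WT mice, so age, cross and genotype cannot be told apart there.

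Interferon-gamma, made mainly by T and NK cells, binds a receptor of 2 chains and signals through the kinases Jak1 and Jak2. Many of its target genes carry GAS elements, and one of them encodes the transcription factor Irf1, which binds interferon-stimulated response elements (ISRE). The GTPases among the targets load onto the vacuoles of intracellular pathogens and disrupt them, and type I interferon induces many of the same genes. In T cells, Irgm1 is also known to help mouse CD4 T cells survive exposure to interferon-gamma. Treg cells, which need the transcription factor Foxp3, restrain the T cells that make this cytokine.

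Because the GTPase genes moved together in the first experiment, the 250 bases before their RefSeq start sites (GRCm38.p6) are shown for the 7 members with an entry, 5′ to 3′ on the strand of the gene. Capitals mark matches to a GAS letter pattern, TTCNNNGAA, or to an ISRE core, GAAANNGAAA, searched on both strands.

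Gbp2 (chr3:142620413-142620662, plus strand): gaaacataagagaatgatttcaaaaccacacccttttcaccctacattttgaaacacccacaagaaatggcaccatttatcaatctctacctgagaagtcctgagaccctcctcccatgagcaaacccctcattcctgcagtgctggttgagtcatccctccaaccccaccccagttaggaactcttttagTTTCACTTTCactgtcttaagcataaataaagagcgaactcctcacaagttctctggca
Gbp3 (chr3:142559794-142560043, plus strand): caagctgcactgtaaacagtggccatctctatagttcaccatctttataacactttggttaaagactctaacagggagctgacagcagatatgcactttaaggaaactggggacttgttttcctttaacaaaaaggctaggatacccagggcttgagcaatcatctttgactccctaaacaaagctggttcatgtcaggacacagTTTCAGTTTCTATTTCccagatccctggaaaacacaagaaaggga
Gbp5 (chr3:142496684-142496933, plus strand): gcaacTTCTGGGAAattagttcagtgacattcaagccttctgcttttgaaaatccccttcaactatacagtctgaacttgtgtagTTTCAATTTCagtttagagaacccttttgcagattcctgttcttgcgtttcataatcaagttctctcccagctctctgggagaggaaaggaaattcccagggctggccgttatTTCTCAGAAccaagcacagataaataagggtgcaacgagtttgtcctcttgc
Gbp7 (chr3:142530086-142530335, plus strand): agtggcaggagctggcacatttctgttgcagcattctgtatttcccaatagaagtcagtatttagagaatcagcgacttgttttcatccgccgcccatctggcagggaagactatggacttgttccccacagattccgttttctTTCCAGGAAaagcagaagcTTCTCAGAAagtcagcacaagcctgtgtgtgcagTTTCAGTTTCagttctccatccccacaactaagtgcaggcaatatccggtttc
Igtp (chr11:58199306-58199555, plus strand): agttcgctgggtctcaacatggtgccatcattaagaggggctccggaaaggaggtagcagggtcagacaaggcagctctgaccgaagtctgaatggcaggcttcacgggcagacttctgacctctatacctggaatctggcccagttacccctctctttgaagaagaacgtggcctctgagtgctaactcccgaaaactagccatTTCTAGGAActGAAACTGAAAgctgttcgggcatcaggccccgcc
Irgm2 (chr11:58214727-58214976, plus strand): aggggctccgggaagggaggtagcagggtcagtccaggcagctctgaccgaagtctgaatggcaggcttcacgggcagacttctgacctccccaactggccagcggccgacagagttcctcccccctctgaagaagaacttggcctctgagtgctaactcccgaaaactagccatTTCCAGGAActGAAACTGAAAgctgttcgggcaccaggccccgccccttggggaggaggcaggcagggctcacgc
Irgm1 (chr11:48871421-48871670, minus strand): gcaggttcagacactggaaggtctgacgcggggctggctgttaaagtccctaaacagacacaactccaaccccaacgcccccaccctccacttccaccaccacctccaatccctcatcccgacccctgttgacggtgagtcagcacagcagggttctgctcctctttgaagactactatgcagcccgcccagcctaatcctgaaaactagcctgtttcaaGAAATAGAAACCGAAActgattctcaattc

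The ISRE core was found in all 7 windows, against 2.98% of the 32851 promoters of the same length in the table. GAS matches stood in 4 of the 7 (Gbp5, Gbp7, Igtp and Irgm2), against 7.02% of all promoters. In Igtp and Irgm2, neighbours on chromosome 11 that start at 58199556 and 58214977, the GAS match began 11 bases upstream of the ISRE core, with the GAS match 45 bases before the start of Igtp and 75 bases before that of Irgm2. The capitals of Gbp3 and of Irgm1 each hold 2 overlapping ISRE cores. Gbp3 has a second listed start whose window holds neither pattern. A match of letters is a description of the sequence and not evidence that a factor binds there. The members without a printed window, Gbp4 and Gbp6 on chromosome 5 and Iigp1 on chromosome 18, are named only.

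Between 148 and 5271 cells were available per sample, with 955097 to 14887898 UMIs, of which 481 to 18579 came from the 10 genes. Levels are UMIs of a gene per 1000000 UMIs of the sample (CPM); since 1 tag is counted per transcript end they are not divided by length, and levels are not compared between genes. Cre UMIs were found in 6 of the 7 ∆Foxp3 samples (2 to 33 each) and in none of the 11 WT samples, and in the chimeras GFP lay at 3.95, 12.5 and 3.16 CPM in ∆Foxp3 cells against 22.6, 17.8 and 18.8 CPM in WT cells. The deposited strain column goes against the label in 2 chimera samples, ∆Foxp3 replicate 2 (the ∆Foxp3 sample with no Cre UMI) and WT replicate 1; the labels were followed, and the chimera result is also given without each. All 6 T cell markers were detected in every sample, while the myeloid markers summed to at most 32.4 CPM and the B cell markers to at most 356 CPM. Erythroid markers reached 603 CPM in ∆Foxp3 replicate B of the first experiment, where 57.4% of cells held at least 2 UMIs over the B, plasma, myeloid and erythroid markers. Barcodes shared between libraries involved 205 cells.

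In the first experiment all 10 GTPase genes rose in ∆Foxp3 mice. Together they reached 1781 and 1669 CPM in the 2 ∆Foxp3 samples, against 337 and 323 CPM in the 2 WT samples, so that both ∆Foxp3 values lay far above both WT values. The quasi-likelihood test of edgeR on UMIs summed per sample, with p adjusted over all genes tested, called all 10 higher, where 14.4% of the 10675 genes tested were called higher and 9.61% lower. The median log2 fold change of the 10 was 2.04, against -0.01 over all genes tested.

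Iigp1, an effector GTPase that coats the vacuoles of Toxoplasma, changed most among the 10. It was counted at 295 and 250 CPM in ∆Foxp3 cells, against 21.8 and 21.4 CPM in WT cells. Its log2 fold change was 3.60 ± 0.12 (SE; adjusted p = 9.85e-05). Gbp2, which helps to break such vacuoles open, had 463 and 424 CPM in ∆Foxp3 cells, against 50.2 and 51.8 CPM in WT cells, with a log2 fold change of 3.07 ± 0.09 (adjusted p = 9.85e-05). The groups were far apart in both genes, and replicates lay close together.

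The regulators of the immunity-related family, which keep the effector GTPases inactive on the cell's own membranes, rose less. Igtp reached 487 and 450 CPM in ∆Foxp3 cells, against 104 and 98.2 CPM in WT cells (log2 fold change 2.16 ± 0.09, adjusted p = 0.000208). Irgm1 reached 80.5 and 90.9 CPM in ∆Foxp3 cells, against 22.4 and 10.7 CPM in WT cells (2.29 ± 0.28, adjusted p = 0.00407). Its WT replicates lay further apart in proportion than those of any other member, yet both were below both ∆Foxp3 samples. Irgm2 reached 26.9 and 25.5 CPM in ∆Foxp3 cells, against 9.20 and 7.55 CPM in WT cells (1.59 ± 0.14, adjusted p = 0.00176).

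Among the other guanylate-binding proteins, Gbp3 stood at 54.0 and 53.0 CPM in ∆Foxp3 cells, against 9.87 and 11.6 CPM in WT cells, a log2 fold change of 2.27 ± 0.12. Gbp5, known to promote inflammasome assembly in mouse macrophages, stood at 17.6 and 18.3 CPM in ∆Foxp3 cells, against 3.83 and 5.36 CPM in WT cells (1.92 ± 0.20). Both groups of samples stayed apart in each gene, and the remaining 3 rose too. Their log2 fold changes were 1.67 ± 0.09 for Gbp4, 1.81 ± 0.15 for Gbp6 and 1.38 ± 0.07 for Gbp7, the smallest of the 10. Most of the 3′ end of Gbp6 cannot be told from its relatives: 77.8% of the 50-base words in the last 500 bases of its transcripts also occur in transcripts of Gbp9, Gbp10 or an unnamed neighbour. For Gbp4 that share was 19.4% and for the other members at most 3.96%, so counts of Gbp6 and in part Gbp4 may include reads of their relatives.

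The transcripts were also seen in more of the cells at equal depth. After each cell was thinned to 1500 UMIs, a UMI of any of the 10 genes was seen in 80.7% and 76.1% of ∆Foxp3 cells, against 34.3% and 33.6% of WT cells; unthinned shares were 92.8% and 88.1% against 51.4% and 50.7%. Iigp1 alone was seen in 30.5% and 25.0% of ∆Foxp3 cells, against 2.85% and 2.94% of WT cells, after thinning. No cell type that lacks these genes was sorted, so the share that free RNA gives was not measured. Values of quality moved with genotype as well: the deposited fraction of reads that fell in cells came to 0.597 and 0.534 for the ∆Foxp3 libraries, against 0.791 and 0.795 for the WT libraries. The 9 myeloid markers in the file summed to 16.8 and 14.3 CPM in ∆Foxp3 cells, against 7.25 and 6.06 CPM in WT cells, with 6 to 8 of the 9 detected in each and Cd14, Csf1r, S100a8 or S100a9 at 0 in at least 1. The B cell markers summed to 121 and 107 CPM in ∆Foxp3 cells, against 188 and 221 CPM in WT cells, and the erythroid markers to 132 and 603 CPM against 182 and 129 CPM. Cells with at least 2 UMIs over the B, plasma, myeloid and erythroid markers made up 18.6% and 57.4% of ∆Foxp3 cells, against 27.1% and 25.3% of WT cells. All 10 genes were still called higher without those cells, without cells bearing a defining marker of B, plasma or myeloid cells, and without ∆Foxp3 replicate B. The part of the fraction of reads in the result was not tested.

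**Figure D1:**
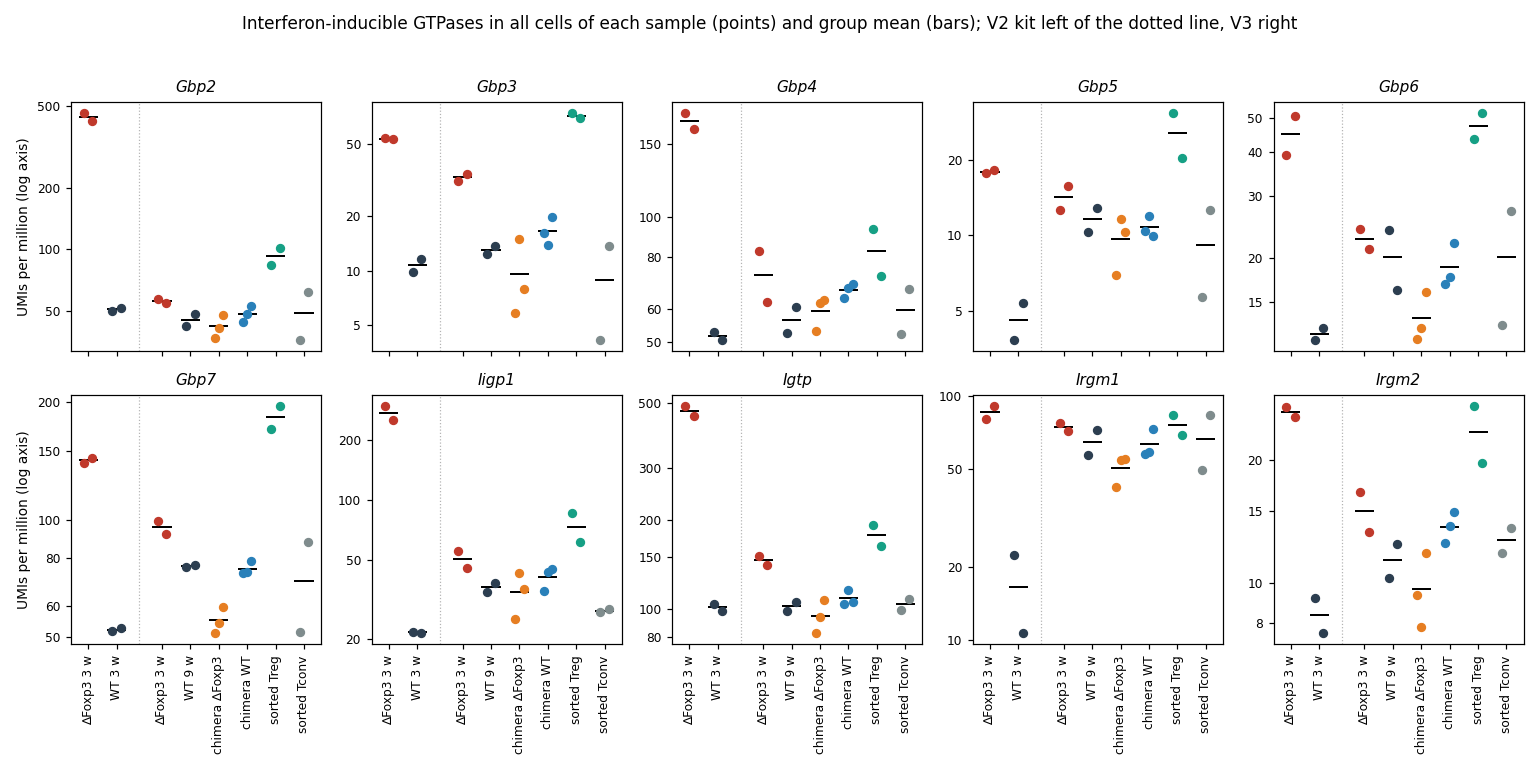
Level of each of the 10 GTPase genes in all cells of each sample, in CPM on a log axis, with 1 panel per gene, 1 point per sample and a bar at each group mean. The V2 samples of 3-week-old mice (left of the dotted line) separate ∆Foxp3 from WT in all 10 panels, while among V3 samples sorted Treg cells hold the highest group mean in each panel.

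The second experiment gave a much smaller difference between ∆Foxp3 mice aged 3 weeks and WT mice aged 9 weeks. The 10 genes summed to 607 and 552 CPM in ∆Foxp3 cells, against 418 and 457 CPM in WT cells. Only Gbp3 was called higher by edgeR, where 22.1% of the 10918 genes tested were called higher, and none was called lower, where 20.9% of genes were. Gbp3 stood at 31.1 and 34.3 CPM in ∆Foxp3 cells, against 12.4 and 13.7 CPM in WT cells (log2 fold change 1.12 ± 0.32, adjusted p = 0.0111); without WT 9-week replicate 1 this call was lost and none of the 10 passed. Igtp, at 150 and 141 CPM in ∆Foxp3 cells against 98.5 and 105 CPM in WT cells, came next (0.30 ± 0.12, adjusted p = 0.0543), and it passed with DESeq2, with library totals and with the tube as a covariate, among other settings. The other 8 had log2 fold changes of -0.11 to 0.25.

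Fitted fold changes of this experiment lie below the ratios of CPM. TMM scaling, which centres the bulk of genes, and scaling by library totals differ here: with library totals the median gene had a log2 fold change of 0.22 in this comparison, and 3658 genes were called higher and 1373 lower, against 2416 higher and 2278 lower with TMM. Within the 2 tubes the ratio of the summed level in ∆Foxp3 to that in WT was 1.45 in tubeA and 1.21 in tubeB, and that of Gbp3 was 2.52 and 2.50. Cell type markers moved here too: the myeloid markers summed to 20.9 and 32.4 CPM in ∆Foxp3 cells, against 6.64 and 16.7 CPM in WT cells. The B cell markers summed to 51.6 and 50.4 CPM in ∆Foxp3 cells, against 188 and 200.2 CPM in WT cells. The 4 Treg markers summed to 322 and 312 CPM in ∆Foxp3 cells, against 80.6 and 209 CPM in WT cells. Mitochondrial genes held 5.11% and 5.002% of the UMIs of ∆Foxp3 cells, against 7.22% and 7.24% of those of WT cells. Gbp3 alone was called, as with all cells, both without cells bearing B, plasma, myeloid or erythroid markers and without cells bearing a defining marker of B, plasma or myeloid cells; the part of the other values was not tested. Cells that the authors annotated as activated Tconv made up 46.0% and 47.4% of ∆Foxp3 cells, against 14.6% and 19.9% of WT cells. In the first experiment they made up 21.8% and 38.2% of ∆Foxp3 cells, against 11.2% and 12.5% of WT cells. The part of this make-up in the differences over all cells was not tested. Irf7-marked clusters, in which the 10 genes are high, held 6.79% and 4.49% of ∆Foxp3 cells of the second experiment, against 9.34% and 9.09% of WT cells. Without the cells of those clusters 4 members (Gbp3, Gbp7, Igtp and Iigp1) were called higher.

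In the fits as reported the direction was the same in both experiments for 9 of the 10 genes (all but Gbp6), but the sizes differed. This count is not firm. Over the settings tried, the log2 fold change of Gbp6 in the second experiment ran from -0.32 to 0.29. Those of Gbp4, Gbp5 and Irgm1 changed sign there too. A joint fit of all 18 samples tested the ∆Foxp3 difference of the first experiment minus that of the second. It was above 0 for all 10 genes and called for 9, where 6.68% of the 11161 genes tested were called in that direction. Iigp1 had a difference between the log2 fold changes of 3.38 ± 0.28 (adjusted p = 8.55e-07) and Gbp2 one of 3.00 ± 0.20 (adjusted p = 1.32e-07). Library totals turned the split over all genes to 481 above and 831 below 0, against 745 and 278 with TMM, and left the members' count at 9. Gbp3, which rose in both, was the member not called, at 1.18 ± 0.40 (adjusted p = 0.0744). By the labels the 2 experiments differ in kit (V2 for the 4 samples of the first) and in the age and the CD45.1 cross of the WT mice. The deposited technology column gives V3 for all 26652 cells, and the labels were followed. Kit, age and cross cannot be told apart from each other or from other differences between the experiments.

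Genes upstream of the GTPases were set beside them. Ifng, the ligand, stood at 42.9 and 96.5 CPM in ∆Foxp3 cells, against 3.90 and 2.90 CPM in WT cells, in the first experiment (log2 fold change 4.22 ± 0.43, adjusted p = 0.0025). In the second Ifng reached 97.5 and 58.0 CPM in ∆Foxp3 cells, against 3.44 and 16.7 CPM in WT cells (2.96 ± 0.53, adjusted p = 0.00038), so the ligand rose in both. The receptor chain Ifngr1 rose in both as well, with log2 fold changes of 1.37 ± 0.18 in the first and 2.53 ± 0.11 in the second. Ifngr2, the other chain, stood at 38.5 and 24.6 CPM in ∆Foxp3 cells against 38.0 and 37.5 CPM in WT cells in the first experiment. It fell in the second, with 5.70 and 2.97 CPM in ∆Foxp3 cells against 31.6 and 23.3 CPM in WT cells (-2.97 ± 0.36, adjusted p = 1.2e-05).

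Of the 7 signalling genes on the list, 5 rose and 1 fell in the first experiment, and 3 rose and 3 fell in the second. Irf1 rose in both, by 1.303 ± 0.08 and by 0.50 ± 0.14 on the log2 scale. Of the 4 inhibitors, 2 rose in the first experiment, Socs1, which blocks the Jak kinases (2.06 ± 0.09), and Socs3 (1.68 ± 0.09). Over all cells of the second none rose, even at an unadjusted p under 0.05, and Pias1 fell (-0.59 ± 0.15). In cells of the second experiment annotated as resting Tconv, 2 of the 4 were called. At an unadjusted p under 0.05, 1 was higher and 1 lower in that class. Among the 6 tested of 8 other targets, all 6 rose in the first and 4 in the second; Tap1, a peptide transporter for antigen presentation, rose by 1.34 ± 0.07 and by 0.71 ± 0.09.

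Relatives of the 10 genes were counted in the same way. Of 12 tested in the first experiment 10 rose, with a median log2 fold change of 1.801, and of 14 tested in the second 1 rose and 3 fell, with a median of -0.09. Gm4951, an immunity-related GTPase gene, was the one that rose in the second experiment, with 7.09 and 6.46 CPM in ∆Foxp3 cells against 0.916 and 1.67 CPM in WT cells (2.25 ± 0.64, adjusted p = 0.0097). In the first it reached 53.7 and 44.3 CPM in ∆Foxp3 cells, against 0.470 and 0.351 CPM in WT cells.

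A list of 14 type I interferon response genes was set beside the GTPases. Over all cells of the first experiment 9 of the 13 tested rose and none fell (median log2 fold change 1.02). At an unadjusted p under 0.05, 10 were higher and 0 lower. By class at that threshold, 12 of 13 tested were higher and 0 lower in cells annotated as resting Tconv. In those annotated as activated Tconv, 2 of 10 tested were higher and 4 lower. Over all cells of the second experiment none of 14 rose and 10 fell (median -1.83). There 0 were higher and 10 lower at an unadjusted p under 0.05. Isg15 had 201 and 130 CPM in ∆Foxp3 cells of the first experiment, against 85.4 and 73.1 CPM in WT cells, and 21.0 and 23.7 CPM in ∆Foxp3 cells of the second, against 79.96 and 84.1 CPM in WT cells. Usp18, which dampens the type I receptor, did not pass in the first (0.15 ± 0.11) and stood at 2.22 and 2.22 CPM in ∆Foxp3 cells of the second, against 21.3 and 19.6 CPM in WT cells. In the second experiment the median log2 fold change of the 10 GTPase genes was 0.12.

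**Figure D2:**
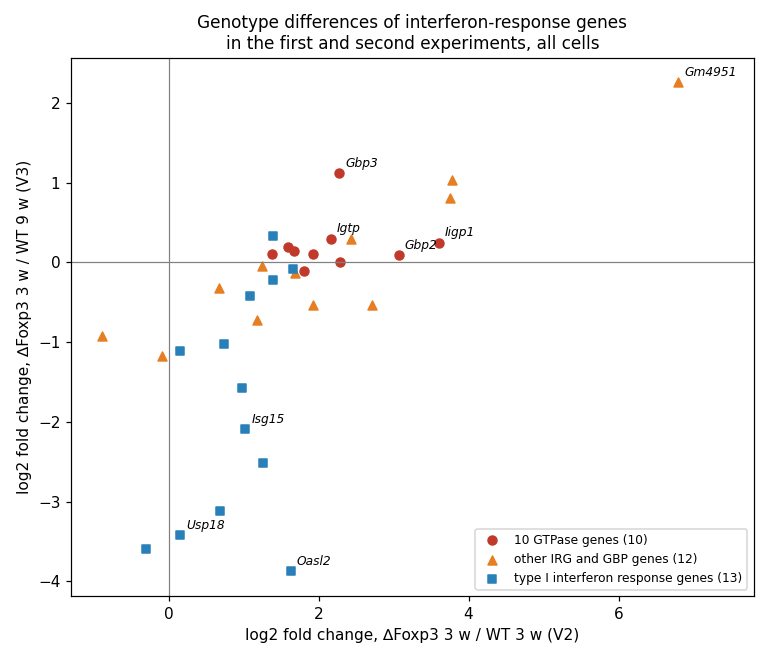
Log2 fold change of each gene between ∆Foxp3 and WT mice in the first experiment (horizontal, WT aged 3 weeks, V2 kit) and in the second (vertical, WT aged 9 weeks, V3 kit), all cells, for the genes tested in both. The 10 GTPase genes lie right of 0 and, but for Gbp3, within 0.30 of 0 on the vertical axis, while type I interferon response genes such as Oasl2, Usp18 and Isg15 reach far below 0.

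Mixed chimeras set ∆Foxp3 and WT cells side by side in the same host. There the 10 genes summed to 326, 396 and 415 CPM in ∆Foxp3 cells, against 434, 466 and 490 CPM in WT cells of the same numbered hosts. All 10 log2 fold changes were below 0, from -0.75 to -0.04, with a median of -0.18, and edgeR called none of the 10, where 0.458% of the 10918 genes tested were called. At an unadjusted p under 0.05, 2 members were lower, and DESeq2 called none. The share of all genes under that unadjusted threshold is not given, here or elsewhere, so such counts are not set against it. Library totals called 17 genes higher and 74 lower, against 23 and 27 with TMM, and no member. The direction of Gbp2, Gbp4, Gbp5 and Igtp rests on differences of at most 0.07, smaller than their standard errors.

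The member furthest from 0 in the chimeras was again Gbp3, with 5.81, 15.01 and 7.89 CPM in ∆Foxp3 cells against 16.2, 13.8 and 19.9 CPM in WT cells (-0.75 ± 0.26, adjusted p = 0.255). Replicate 2 overlapped the WT samples, and without that ∆Foxp3 sample Gbp3 was called lower, the only member called; without WT replicate 1 none of the 10 was called. Gbp7 had 51.2, 54.5 and 59.9 CPM in ∆Foxp3 cells against 73.0, 73.6 and 78.2 CPM in WT cells, with no overlap (-0.31 ± 0.10, adjusted p = 0.208). Treg markers moved alongside: the 4 markers summed to 34.2, 122 and 39.2 CPM in ∆Foxp3 cells, against 286, 222 and 177 CPM in WT cells. Treg-annotated cells made up 2.39%, 4.84% and 2.27% of ∆Foxp3 cells, against 9.77%, 8.76% and 8.82% of WT cells. Over the settings tried, the log2 fold change of Gbp3 ran from -0.50 to 0.03 within cells annotated as resting Tconv. It ran from -1.10 to -0.51 within activated Tconv cells and from -0.88 to -0.32 within Treg-annotated cells. The part of the Treg share in the result was not tested. The ratio of mean summed levels, ∆Foxp3 to WT, was 0.79 in tubeA and 0.86 in tubeB. The ∆Foxp3 and WT cells of each host were in different tubes. These ratios therefore compare different hosts, and pairs within a host cross the tubes. Samples of 1 mouse were paired by its hashtag, and the fit with that block made no call either.

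The difference between ∆Foxp3 and WT in intact mice of the second experiment minus that in chimeras was above 0 for all 10 genes. It was called for Gbp3 alone (1.86 ± 0.41, adjusted p = 0.00238), where 18.7% of genes tested were called in that direction, and 6 members passed with library totals, where 3846 genes were called above 0 and 978 below, against 2042 and 1978 with TMM. Ifng in the chimeras had 7.40, 11.8 and 2.54 CPM in ∆Foxp3 cells against 3.19, 5.37 and 6.07 CPM in WT cells. No gene of the pathway lists passed there; at an unadjusted p under 0.05, 2 relatives were lower and 1 type I gene was higher.

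Between ∆Foxp3 cells of the chimeras and ∆Foxp3 cells of intact 3-week-old mice, all 10 genes were on the lower side in the chimeras, and 4 were called lower (Gbp3, Gbp6, Gbp7 and Igtp), where 27.5% of genes tested were called lower. Gbp3 had a log2 fold change of -1.63 ± 0.25 (adjusted p = 6.05e-05) and Igtp one of -0.37 ± 0.10 (adjusted p = 0.00544). With library totals 9 of the 10 were called, with all genes shifted to a median of -0.24 and 1678 genes higher and 4587 lower, against 2893 higher and 3000 lower with TMM. WT cells of the chimeras set against WT cells of 9-week-old mice gave no call among the 10 in edgeR or DESeq2, where 0.183% of genes tested were called, and none at an unadjusted p under 0.05. These comparisons share samples with those above.

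**Figure D3:**
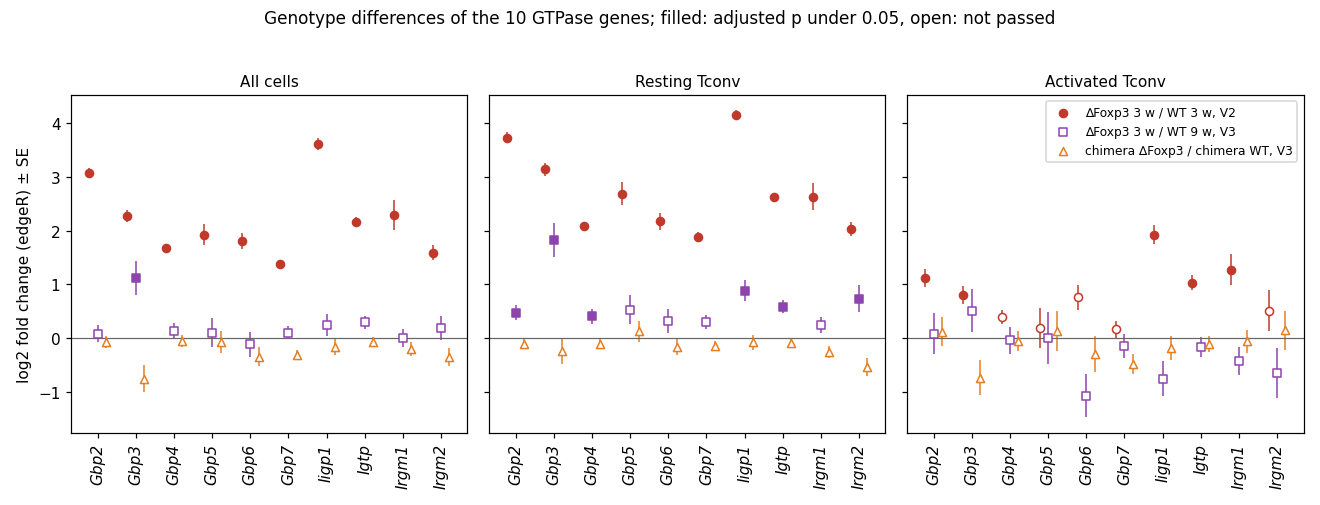
Log2 fold change with its standard error for each of the 10 genes in 3 comparisons, over all cells (left), resting Tconv cells (middle) and activated Tconv cells (right); filled points passed an adjusted p under 0.05. All 10 first-experiment points are filled over all cells and in resting cells, 6 second-experiment points are filled in resting cells, and none of the chimera points is filled.

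The authors annotated each cell as resting Tconv, activated Tconv or Treg, which let genotype be compared within a class. In resting Tconv cells of the first experiment the 10 genes summed to 2116 and 2292 CPM for ∆Foxp3 mice, against 299.8 and 295 CPM in WT mice. All 10 were called higher, where 12% of 10071 genes were called higher and 7.63% lower. Iigp1 had 360 and 363 CPM for ∆Foxp3 mice, against 19.99 and 20.6 CPM in WT mice (log2 fold change 4.15 ± 0.08, adjusted p = 3.8e-07). In the same class Gbp2 stood at 576 and 679 CPM for ∆Foxp3 mice, and at 47.5 and 46.7 CPM for WT mice (3.72 ± 0.10). The samples of the 2 groups were far apart in both genes.

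In activated Tconv cells of the first experiment the sums were 821 and 802 CPM for ∆Foxp3 mice, against 494 and 391.7 CPM in WT mice. There 5 members were called higher (Gbp2, Gbp3, Iigp1, Igtp and Irgm1), where 9.16% of 8170 genes were, and 3 without WT replicate B. Iigp1 led with 105 and 85.1 CPM for ∆Foxp3 mice, against 27.7 and 22.3 CPM in WT mice (1.92 ± 0.18), while Gbp7 had 91.4 and 112 CPM for ∆Foxp3 mice, against 102 and 76.9 CPM in WT mice (0.17 ± 0.16). A fit of both classes with a block for the sample, added after these values were seen, tested the difference in resting cells minus that in activated cells. It was called above 0 for all 10 genes, where 4.6% of 9050 genes were, from 1.34 ± 0.22 for Irgm1 to 2.57 ± 0.20 for Gbp2.

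Resting Tconv cells also showed more in the second experiment than all cells did. The summed level was 721 and 633 CPM in ∆Foxp3 mice aged 3 weeks, against 378 and 399 CPM in WT mice aged 9 weeks. Called higher were 6 members (Gbp2, Gbp3, Gbp4, Iigp1, Igtp and Irgm2), where 22.2% of 10182 genes were, and all 10 with library totals. The split over all genes was 3786 higher and 1027 lower with library totals, against 2265 and 1957 with TMM. Gbp3 had 28.1 and 31.7 CPM for ∆Foxp3 mice, against 5.69 and 9.10 CPM in WT mice (1.83 ± 0.31, adjusted p = 4.92e-05). Iigp1 had 85.2 and 66.7 CPM for ∆Foxp3 mice, against 34.7 and 31.3 CPM in WT mice (0.89 ± 0.19, adjusted p = 0.000676). In activated cells the summed level was 487 and 460 CPM for ∆Foxp3 mice, against 568 and 544 CPM in WT mice. No member was called there by edgeR or DESeq2, where 10.0% of 8744 genes were. At an unadjusted p under 0.05, 2 members were lower. There Gbp6 had 18.5 and 18.3 CPM for ∆Foxp3 mice, against 47.9 and 27.8 CPM in WT mice (-1.06 ± 0.40, adjusted p = 0.105).

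The difference between the classes was called in the second experiment for 5 members (Gbp3, Gbp6, Iigp1, Igtp and Irgm1), where 5.89% of 10173 genes were, with Iigp1 highest at 1.60 ± 0.30 (adjusted p = 4.54e-06). This count is less steady: it was 8 with library totals, 1 with DESeq2 and 1 without WT 9-week replicate 1.

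In the chimeras neither class gave a call by edgeR or DESeq2. Resting cells summed to 314, 366 and 393 CPM in ∆Foxp3 cells, against 392.4, 427 and 425 CPM in WT cells, with 1.28% of genes called (88 higher and 42 lower, against 18 and 75 with library totals) and 2 members lower at an unadjusted p under 0.05. With the block for the host, Irgm2 was called lower in resting cells, where it had 9.07, 6.67 and 10.9 CPM in ∆Foxp3 cells against 13.9, 13.8 and 15.1 CPM in WT cells (-0.53 ± 0.16, adjusted p = 0.161 without the block). Activated cells summed to 357, 420 and 530 CPM in ∆Foxp3 cells, against 427, 517 and 614 CPM in WT cells, with 0.137% of genes called and 2 members lower at an unadjusted p under 0.05. Against resting cells of intact ∆Foxp3 mice, resting ∆Foxp3 cells of the chimeras were called lower in all 10 genes, where 26.4% of genes were, led by Gbp3 (-1.87 ± 0.22) and Iigp1 (-1.01 ± 0.15); over all genes 2479 were higher and 2685 lower, against 1234 and 4489 with library totals. In activated cells the same contrast called Gbp3 and Gbp7 lower, where 15.2% of genes were, and Iigp1 higher (0.77 ± 0.24), where 12.8% were. Iigp1 was not called there with DESeq2, with the replicate block or without the Irf7-marked clusters, nor without either ∆Foxp3 replicate of the intact mice or chimera ∆Foxp3 replicate 3. Gbp3 was the one member called without intact ∆Foxp3 replicate 1, and none was without intact ∆Foxp3 replicate 2.

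**Figure D4:**
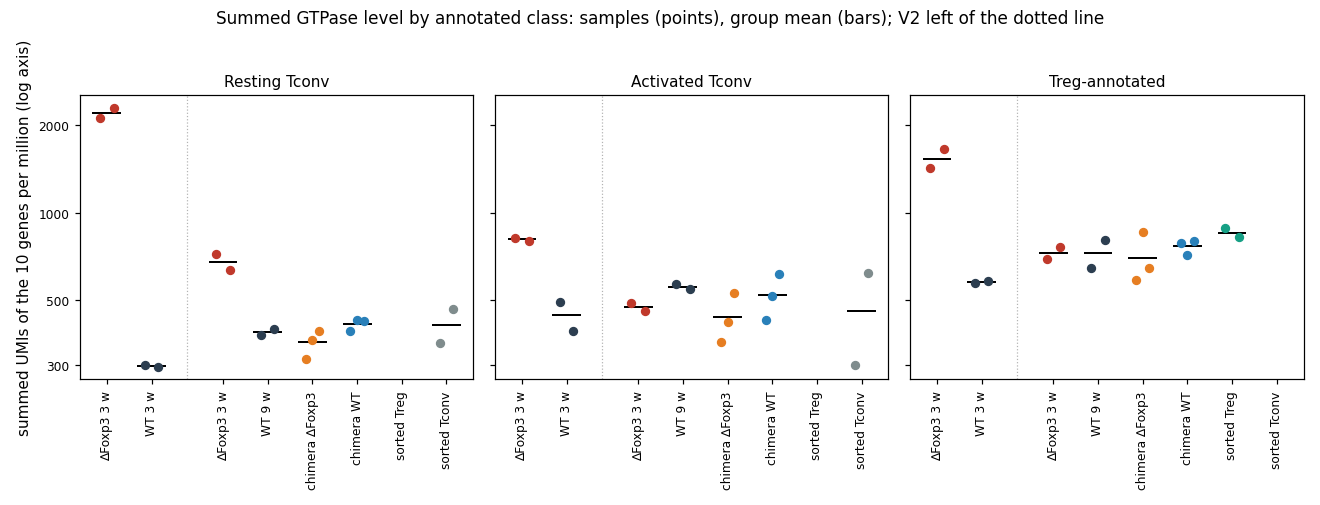
Summed level of the 10 genes in resting Tconv, activated Tconv and Treg-annotated cells, in CPM on a log axis, with 1 point per sample and a bar at each group mean; V2 samples are left of the dotted line. Resting cells of ∆Foxp3 mice lie above those of their WT group in both experiments, whereas in activated cells of the second experiment they lie below.

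Treg cells were examined as sorted cells and as annotated cells. Sorted GFP+ Treg cells of 9-week-old WT mice held 884 and 823 CPM of the 10 genes, against 350 and 504 CPM in sorted GFP-negative Tconv cells. Among the 10, 7 were called higher (all but Gbp4, Irgm1 and Irgm2), where 6.16% of the 10918 genes were. Gbp3 differed most, with 74.1 and 69.3 CPM in Treg cells against 4.13 and 13.6 CPM in Tconv cells (3.01 ± 0.46, adjusted p = 0.000459). Gbp7, which takes part in the oxidative defence of mouse macrophages, had 171 and 196 CPM in Treg cells, against 51.7 and 87.9 CPM in Tconv cells (1.22 ± 0.15, adjusted p = 0.000109). Of the relatives, Gbp2b reached 17.5 and 16.3 CPM in Treg cells, against 0.517 and 0 CPM in Tconv cells, and was called higher.

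The count changed when single samples were left out. Without Tconv replicate 1 there were 2 calls (Gbp3 and Gbp7), without Treg replicate 1 there were 3, and without cells bearing B, plasma, myeloid or erythroid markers 4. The B cell markers summed to 305 and 356 CPM in Treg cells, against 174 and 169 CPM in Tconv cells, and all 7 calls were kept without cells bearing a defining marker of B, plasma or myeloid cells. With library totals the split of calls over all genes was 1627 higher and 360 lower, against 673 and 656. Within tubes the ratio of the summed level in Treg cells to that in Tconv cells was 2.52 in tubeA and 1.63 in tubeB. Ifng did not pass (3.61 and 6.79 CPM in Treg cells, against 10.3 and 4.19 CPM in Tconv cells), Ifngr1 rose (1.31 ± 0.14), and Socs1 rose (1.11 ± 0.21).

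Treg-annotated cells of ∆Foxp3 mice, which carry the disrupted Foxp3 allele and are Treg cells by annotation only, also carried more GTPase RNA in the first experiment. They summed to 1420 and 1650 CPM for ∆Foxp3 mice, against 572 and 584 CPM in WT mice. Of 9 members tested (Irgm2 was too low), 7 were called higher, where 8.54% of 5492 genes were, with Iigp1 at 2.80 ± 0.21 and Irgm1 at 2.20 ± 0.37. In the second experiment the sums were 694 and 760 CPM for ∆Foxp3 mice, against 645 and 807 CPM in WT mice. None of the 10 was called by edgeR or DESeq2, where 7.09% of 6136 genes were; at an unadjusted p under 0.05, 1 was higher and 2 lower. The chimeras gave 584, 857 and 646 CPM in ∆Foxp3 cells, against 788, 716 and 796 CPM in WT cells, with no call by either tool, 0.359% of genes called (11 higher and 11 lower, against 6 and 12 with library totals) and 1 member lower at an unadjusted p under 0.05. The summed levels of the groups overlapped in both V3 comparisons.

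In order of the summed level, the V3 groups ran from sorted Treg cells (854 ± 43.5 CPM, SD, n = 2) through ∆Foxp3 mice (580 ± 38.6, n = 2), WT chimera cells (463 ± 28.3, n = 3), WT mice aged 9 weeks (438 ± 27.5, n = 2) and sorted Tconv cells (427 ± 108, n = 2) to ∆Foxp3 chimera cells (379 ± 47.0, n = 3). WT chimera cells, WT mice and sorted Tconv cells do not differ beyond their spread, nor do sorted Tconv cells and ∆Foxp3 chimera cells. Between the kits, ∆Foxp3 mice of the first experiment (1725 ± 79.5 CPM, n = 2) stood above every V3 group, while WT mice of the first (329.9 ± 10.4, n = 2) stood below the means of all of them. Levels across kits were measured in separate experiments and are only set side by side.

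The authors' finer clusters show where within a class the RNA was found; the annotation was made from gene expression, so levels between clusters are given as a description, for clusters of at least 20 cells in a sample. The cluster named Tconv_resting_Irf7, after a transcription factor of the type I response, held the highest level in each sample with enough of its cells. All 10 genes together held 4088 and 4565 CPM there in ∆Foxp3 mice of the first experiment, against 1084 and 1036 CPM in WT mice, and 2017 and 2242 CPM in ∆Foxp3 mice of the second, against 1322 and 1490 CPM in WT mice. In the chimeras that cluster held 978, 1303 and 1302 CPM in ∆Foxp3 cells, against 1292, 1546 and 1598 CPM in WT cells. Clusters marked by Irf7 gave 24.1% and 21.5% of the GTPase UMIs of ∆Foxp3 cells of the first experiment from 11.1% and 8.25% of the cells, against 21.3% and 25.1% in WT from 6.58% and 7.68% of the cells.

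The difference of the first experiment was not held by that cluster alone. Tconv_resting_1, the cluster with most cells, had 1794 and 1964 CPM for ∆Foxp3 mice, against 235 and 222 CPM in WT mice. Among activated clusters, Th1 cells, the kind that secretes interferon-gamma, had 782 and 767 CPM for ∆Foxp3 mice, against 503 and 488 CPM in WT mice. In the second experiment Tconv_resting_1 had 536 and 494 CPM for ∆Foxp3 mice, against 270 and 273 CPM in WT mice, and tissue-like Tconv cells had 426 and 389 CPM for ∆Foxp3 mice, against 597 and 514 CPM in WT mice. With all Irf7 clusters left out, all 10 genes were still called higher over all cells of the first experiment.

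**Figure D5:**
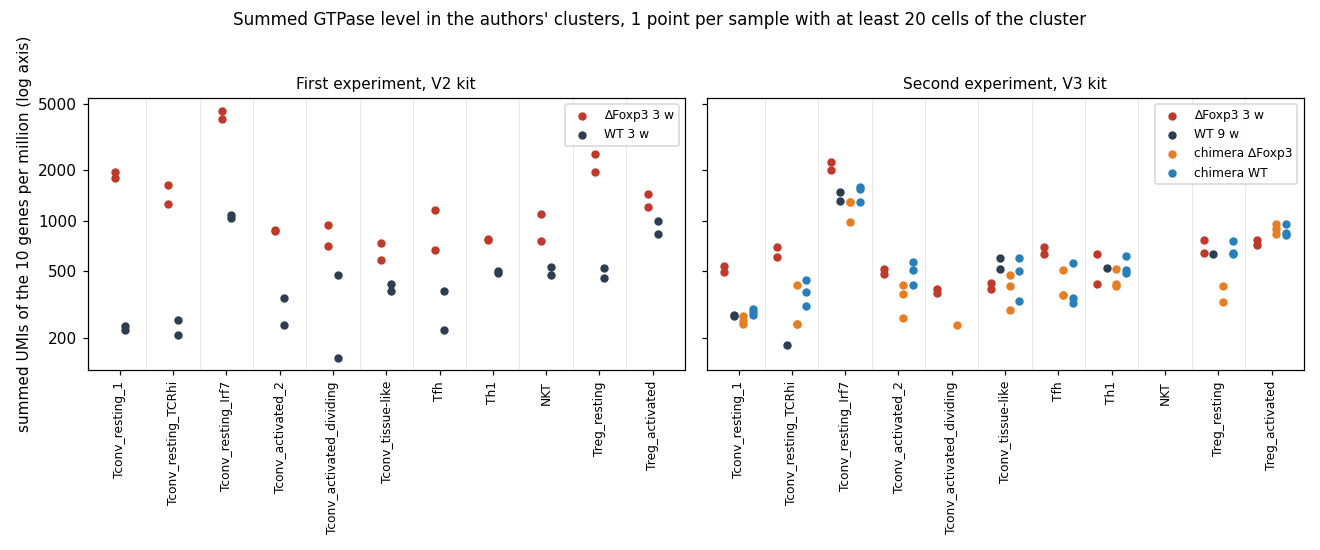
Summed level of the 10 genes in the authors' clusters, in CPM on a log axis, with 1 point for each sample that has at least 20 cells of the cluster; the first experiment is on the left and the second on the right. Every ∆Foxp3 point of the first experiment lies above the WT points of its cluster. In intact mice of the second, Tconv_resting_1 separates ∆Foxp3 from WT while Th1 does not, and the chimera ∆Foxp3 points of Tconv_resting_1 do not lie above the WT points.

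Genes whose levels followed the 10 across the 14 V3 samples were ranked by Pearson r between their log2 CPM and the mean z-score of the members, over 5063 genes. The samples share tubes, hosts and depth, so r is a description. H2-T23, which encodes the non-classical MHC protein Qa-1, ranked highest (r = 0.949), followed by Slc2a3 (0.929), Serp1 (0.912), Rel (0.909), Rab37 (0.907), Mxd4 (0.902), Tmem154 (0.901) and Ncoa7 (0.897). In the first experiment, which the ranking did not use, 3 of these 8 were called higher in ∆Foxp3 mice: Ncoa7 (log2 fold change 2.84, adjusted p = 0.00262), H2-T23 (1.11, adjusted p = 0.0029) and Rab37 (0.62, adjusted p = 0.00811). The other 5 did not pass, with log2 fold changes of -0.18 to 0.42.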

How the data were processed

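Per the submitters' processing notes, reads were processed with Cell Ranger 3.0.2 against mm10; the annotation and strand setting are not given in the sources used here. The authors deposited 1 matrix of UMI counts per gene and cell, and per cell a sample name, class, cluster, counts of Foxp3, GFP and Cre, the percent of mitochondrial UMIs and, for V2 libraries, the fraction of reads in cells. Another 45 columns of the cell table were not used. All deposited cells were kept; the deposited doublet flag marks none of them, and none was called anew.

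Counts were summed per sample, or per sample and class with at least 20 cells, and tested with the quasi-likelihood F test of edgeR 4.0.16 in R 4.3.3 (TMM factors; genes under 10 counts dropped by filterByExpr; Benjamini-Hochberg adjustment over all genes, threshold 0.05). V2 samples had their own fit, V3 samples shared one, and a joint fit compared the experiments. The standard error is that of the log2 fold change. DESeq2 1.42.0, other scalings, filters, blocks and left-out cells or samples were alternatives. The fits were tested on simulated counts. Shares of cells were taken after thinning to 1500 UMIs.

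The members and gene lists were chosen with earlier results of these data known. Besides the members, genes of the fixed pathway lists and the 8 genes most like the members across V3 samples (mean of at least 20 CPM) are named; clusters named were chosen after their values were seen. Chimera replicate numbers share a mouse by hashtag, so they pair the samples; deviations of same-numbered samples from their group means correlated at 0.060, 0.053 and 0.022.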

Additional observations from a re-analysis of the deposited data

Results flagged for a closer look

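The ∆Foxp3 difference of the first experiment minus that of the second was tested in a joint fit and differed from 0 for 9 members, on the log2 scale by 3.00 for Gbp2, 1.55 for Gbp4, 1.845 for Gbp5, 1.95 for Gbp6, 1.304 for Gbp7, 3.38 for Iigp1, 1.89 for Igtp, 2.31 for Irgm1 and 1.42 for Irgm2. The kits, the experiments, and the ages and crosses of the WT mice cannot be told apart.

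The ∆Foxp3 difference of intact mice minus that of chimeras differed from 0 for Gbp3, by 1.86.

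Within samples, the ∆Foxp3 difference in resting Tconv cells minus that in activated Tconv cells was tested in both experiments. In the first it was 2.57 for Gbp2, 2.30 for Gbp3, 1.68 for Gbp4, 2.49 for Gbp5, 1.43 for Gbp6, 1.72 for Gbp7, 2.20 for Iigp1, 1.57 for Igtp, 1.34 for Irgm1 and 1.53 for Irgm2. In the second it passed for 5 members, with 1.33 for Gbp3, 1.43 for Gbp6, 1.60 for Iigp1, 0.75 for Igtp and 0.64 for Irgm1. Classes were drawn by the authors from expression, and the part of that choice in the result was not tested.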

How the results depend on the processing

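Members called under some setting had 1545 values under alternatives. Of these, 1376 kept their direction and side of the threshold, 85 lost a call, 83 gained one and 1 reversed its sign. Of 1326 values of members never called, 103 changed sign. The reversed value was that of Gbp4 in the class difference of the second experiment. As reported it was 0.45 and not called, and it passed only with library totals. It stood at -0.20 without WT 9-week replicate 1 and at 0.83 without WT 9-week replicate 2. Of 576 counts of called members under alternatives, 525 stayed within 1.5 times.

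In the second experiment the count of members higher, 1 as reported, was 2 with RLE scaling, without a filter, with DESeq2, with the replicate block, with library totals, with the tube as covariate, in a fit of the compared groups and without NKT cells, and 4 without Irf7 clusters. For intact minus chimera differences, 1 as reported, it was 3 with RLE, 4 without a filter, 2 with DESeq2, 3 with the replicate block, 6 with library totals, 3 with the tube, 3 in a fit of the compared groups, 4 without Irf7 clusters and 2 without NKT cells. In the chimeras 2 were lower without a filter (Gbp3 and Gbp7). Between ∆Foxp3 chimera cells and intact ∆Foxp3 mice, 4 as reported, 7 were lower with the replicate block, 9 with library totals and 7 without Irf7 clusters. Sorted Treg cells had 4 members higher without cells bearing other markers.

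Within classes, the replicate block called 1 member lower in resting chimera cells. Library totals called 10 higher in resting cells of the second experiment. In its activated cells 1 was lower (Gbp6) without a filter, with the block and in a fit of the compared groups, and in its Treg-annotated cells 1 (Gbp2) with the block and in that fit. Iigp1, higher in activated ∆Foxp3 chimera cells against intact mice, was not called (0) with DESeq2, with the block or without Irf7 clusters. The class difference of the second experiment called 8 with library totals and 1 with DESeq2.

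With 1 sample left out, counts ran from 0 to 1 in the second experiment, 1 to 3 for intact minus chimera differences, 0 to 1 in the chimeras, 2 to 5 in sorted cells and 3 to 6 in activated cells of the first experiment. In activated chimera cells against intact mice they ran from 0 to 1 higher and 0 to 3 lower, and for the class difference of the second experiment from 1 to 5. Where 1 sample was left in a group, it was assumed to vary like the others. Outside the chimeras equal replicate numbers are not known to share a mouse; same-numbered deviations correlated at 0.077, 0.140 and 0.098. The cause of these changes was not tested.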
